A study of Homo sapiens with 6 samples.

Results

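The Shroom, ROCK and non-muscle myosin genes form a short contractile pathway, and their level was described in AB 8/13 podocytes. The 10 members were taken by gene name from a deposited table of 20745 genes, and each name matched 1 row. They were SHROOM2, SHROOM3 and SHROOM4, the kinases ROCK1 and ROCK2, the heavy chains MYH9 and MYH10, and the regulatory light chains MYL9, MYL12A and MYL12B. The study sequenced RNA of AB 8/13, a conditionally immortalized human podocyte line that divides at 33 °C and was differentiated at 37 °C for 7 to 10 days. There were 3 vehicle cultures and 3 cultures given 1 µM levamisole, both sampled at 24 h. The labels describe both groups as serum-free for that time, whereas the study's methods name complete medium for the vehicle cultures, and the 2 accounts were not reconciled here.

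The values described are base means. A base mean is the authors' mean normalized count of a gene over the libraries of their fit, so it pools vehicle and levamisole cultures. It has no value per culture, no SD and no n, and the depth of each library is unknown. For that reason no difference below was tested, the spread between cultures behind each level is not known, and the effect of levamisole on these genes was not analysed here.

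Non-muscle myosin II is the motor that pulls on actin filaments in cells other than muscle. Each molecule joins a pair of heavy chains, which carry the motor, with regulatory and essential light chains. Phosphorylation of the regulatory light chain switches the motor on, either through the ROCK kinases, which are activated by the GTPase RhoA, or through myosin light chain kinase. Shroom proteins bind actin and recruit ROCK to it. In podocytes, actomyosin contraction is set against the filtration pressure of the glomerulus, and inherited changes in MYH9 are known to damage the glomerular filter.

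The 3 regulatory light chains carry the site that ROCK phosphorylates, and its coding sequence is shown because it is the point where the kinases and the myosins of this group meet. The site is a threonine followed by a serine. Counted from the initiator methionine, these are residues 19 and 20 of MYL9 and of MYL12B and residues 18 and 19 of MYL12A. Each sequence below has 54 bases, read 5′ to 3′ on the plus strand of GRCh38 from the reference transcript, lies within 1 coding exon, and has the 2 codons of the site in capitals. The MYL9 stretch is at chr20:36544915-36544968, the MYL12A stretch at chr18:3253275-3253328 and the MYL12B stretch at chr18:3272929-3272982.
MYL9: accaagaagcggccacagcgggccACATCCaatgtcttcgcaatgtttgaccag
MYL12A: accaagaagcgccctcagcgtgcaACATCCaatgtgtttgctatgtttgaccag
MYL12B: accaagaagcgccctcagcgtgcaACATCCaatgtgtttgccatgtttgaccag

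The codons of the phosphorylated pair were the same in all 3 genes. MYL9 differed from MYL12A at 7 of the 54 bases and from MYL12B at 7, while MYL12A and MYL12B differed at 1. None of these differences changed an amino acid, with 0 of 18 residues different in each pair. Over the whole protein, MYL12A and MYL12B were identical at 98.2% of 171 aligned residues, and MYL9 was identical to MYL12A at 93.6% and to MYL12B at 93.0%. MYL12A (chr18:3247481-3256236, plus strand) and MYL12B (chr18:3261479-3278461, plus strand) lie next to each other with 5242 bases between them, and MYL9 (chr20:36541497-36551447, plus strand) is on another chromosome.

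Measured levels spanned a wide range, from MYH9 with a base mean of 22809 to SHROOM4 with 8.65. MYH9, the heavy chain of myosin IIA, was at place 20 of the 20745 genes. The regulatory light chains followed, with base means of 2724 for MYL12A, 1888 for MYL12B and 1213 for MYL9. MYH10, the heavy chain of myosin IIB, had a base mean of 496. The kinases were lower, with 275 for ROCK2 and 241 for ROCK1. The scaffolds were lowest, with 128 for SHROOM3 and 32.1 for SHROOM2.

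The reads came from an adapted CEL-seq protocol, which primes on the poly(A) tail and so reads mostly the 3′ end of a transcript. Levels of different genes were compared as base mean per kb of the MANE Select transcript, the reference transcript of each gene in GENCODE 44. Because 3′ reads need not grow in number with length, the undivided base mean is given beside the comparisons within a family.

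**Figure D1:**
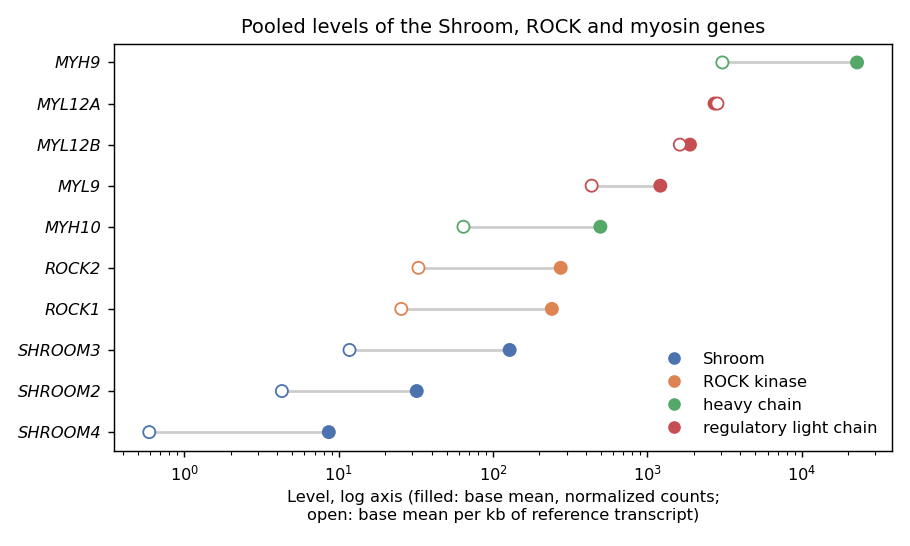
Level of each of the 10 genes on a log axis, as base mean in normalized counts (filled points) and as base mean per kb of the reference transcript (open points), coloured by family. The values pool all cultures and have no error bars. MYH9 is highest on both scales at 22809 and 3061 per kb, and SHROOM4 is lowest on both at 8.65 and 0.594 per kb.

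All 10 genes had a base mean of at least 5, against 64.3% of the 20745 genes. The median base mean of the whole table was 21.8, so SHROOM4 lay below the middle gene and the other 9 members above it. By percentile of base mean among all genes, MYH9 was at 99.91, MYL12A at 99.04, MYL12B at 98.38, MYL9 at 97.11 and MYH10 at 91.94. By base mean the 5 myosin genes were thus the highest of the 10. With the union of all annotated exons as length, MYH10 (15.2 per kb) was below ROCK2 (23.6 per kb) and ROCK1 (18.0 per kb). ROCK2 was at percentile 85.65 and ROCK1 at 83.79. SHROOM3 was at 74.78, SHROOM2 at 54.52 and SHROOM4 at 40.76.

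Per kb of reference transcript, the 10 genes kept the order they had by base mean, and the long Shroom transcripts moved down among all genes. Among the 20599 genes with a transcript length, SHROOM3 was at percentile 55.7, SHROOM2 at 41.29 and SHROOM4 at 14.93. MYH9 was at percentile 99.57 on this scale, and the median gene had 7.96 per kb. The members together took 0.470% of the summed base means, of which MYH9 alone took 0.359%. The 22 genes of the mitochondrial genome that had a base mean took 34.8% of that sum, and without them the members' part was 0.720%.

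**Figure D2:**
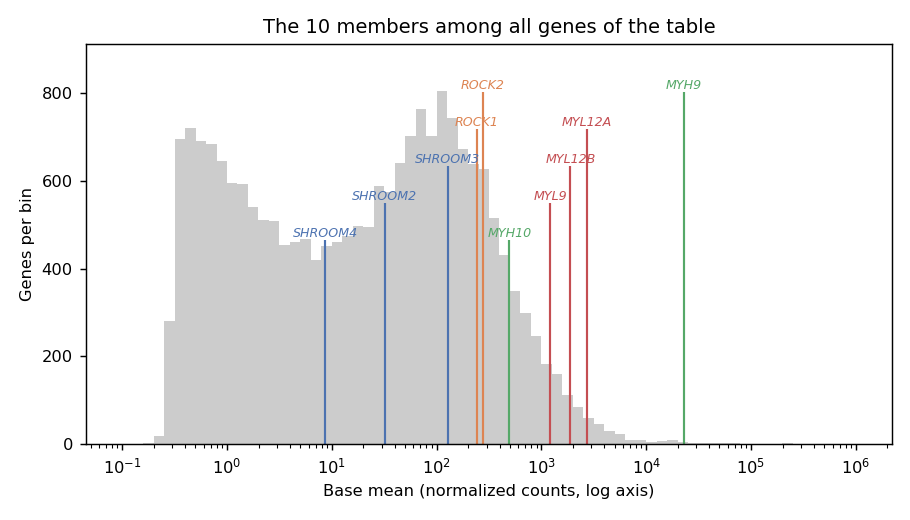
Number of genes per bin of base mean (normalized counts, log axis) for all 20745 genes, with a coloured line at each of the 10 members. The height of a line only separates the labels. The myosin genes lie on the right-hand slope from 496 to 22809, the kinases at 241 and 275, and the Shroom genes from 8.65 to 128.

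The 3 Shroom scaffolds had widely different levels. SHROOM3, which drives apical constriction of epithelial cells and has been linked to podocyte structure, had 11.8 per kb. SHROOM2 had 4.29 per kb. SHROOM4, known mainly from work on the brain, had 0.594 per kb. Among these 3 genes, SHROOM3 therefore held 70.7% of the summed level per kb, SHROOM2 25.8% and SHROOM4 3.57%. SHROOM3 was 2.74 times SHROOM2 per kb and higher by base mean too. Against SHROOM4 it was 19.8 times higher per kb and 14.8 times higher by base mean. The order SHROOM3, SHROOM2, SHROOM4 was the same on both scales.

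SHROOM1, the remaining Shroom gene and not a member, had a base mean of 19.4 and 5.15 per kb, which put it above SHROOM2 per kb and below it by base mean. The family shares leave SHROOM1 out and would be lower with it. The Shroom proteins were the least alike of the 4 families. SHROOM2 (1616 residues) and SHROOM3 (1996 residues) were identical at 44.3% of 1450 aligned residues, SHROOM2 and SHROOM4 (1493 residues) at 38.8% and SHROOM3 and SHROOM4 at 40.1%. SHROOM2 (chrX:9786429-9949443, plus strand) and SHROOM4 (chrX:50586796-50814302, minus strand) are on the X chromosome, and SHROOM3 is at chr4:76435229-76783253 on the plus strand. The reference transcript of SHROOM4 has 14557 bases, of which 9899 are 3′ UTR, the longest UTR among the 10 members.

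ROCK1 and ROCK2, the kinases that phosphorylate the regulatory light chain and inactivate the phosphatase that opposes them, were close to each other. ROCK2 had 32.9 per kb and ROCK1 25.5 per kb, a ratio of 1.29. By base mean the ratio was 1.14. ROCK2 held 56.4% of the pair's summed level per kb and 53.3% by base mean. With no spread between cultures, a ratio of this size cannot be told from equal levels. The kinases are 66.7% identical over 1347 aligned residues, and each has 33 exons in its reference transcript. ROCK1 lies at chr18:20944612-21111813 and ROCK2 at chr2:11179759-11348330, both on the minus strand.

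The heavy chains were the most unequal pair. MYH9 had 3061 per kb and MYH10 64.4 per kb, a ratio of 47.5. By base mean the ratio was 46.0, since the transcripts have nearly the same length, 7451 and 7707 bases. With all annotated exons as length (17034 and 32700 bases), it was 88.2. MYH9 held 97.9% of the pair's summed level per kb of reference transcript and by base mean, and 98.9% per kb of all exons. The proteins are 78.5% identical over 1959 aligned residues. MYH9 lies at chr22:36281280-36388010 and MYH10 at chr17:8474207-8631376, both on the minus strand. MYH14, the heavy chain of myosin IIC and not a member, had a base mean of 0.540. MYH11, the smooth muscle heavy chain, had a base mean of 66.9 and 9.73 per kb, so MYH9 stood above the other 3 heavy chains on each scale.

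The regulatory light chains had no order that held on every scale. MYL12A had 2843 per kb, MYL12B 1623 and MYL9 435.5. By these values MYL12A held 58.0% of the family, MYL12B 33.1% and MYL9 8.89%. By base mean the shares were 46.8%, 32.4% and 20.8%. With the union of all annotated exons as length, MYL12B was first with 44.9%, ahead of MYL12A with 37.2%. MYL9, the light chain best known from smooth muscle, was the lowest of the 3 on all 3 scales. Its length hardly changed between the reference transcript (2786 bases) and all exons (2808 bases), whereas that of MYL12A went from 958 to 3032 bases.

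**Figure D3:**
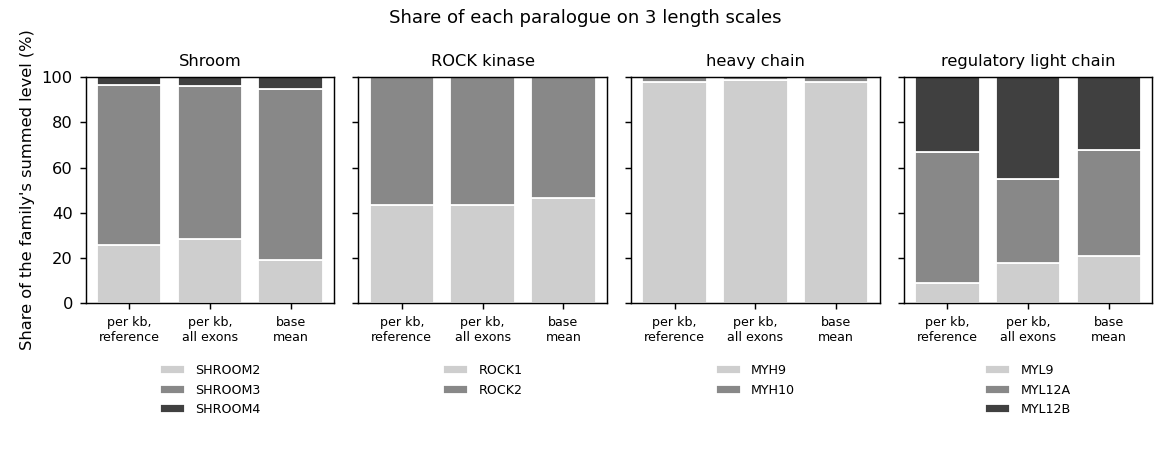
Share of each paralogue in the summed level of its family, in percent, with the level taken per kb of the reference transcript, per kb of all annotated exons, or as the undivided base mean. A family here holds its members alone, so SHROOM1, MYH11 and MYH14 are left out. The bars have no error because the values are pooled. MYH9 fills 97.9% to 98.9% of the heavy chain bars, whereas MYL12A ranges from 37.2% to 58.0% of the light chain bars.

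The order of the summed heavy chains and regulatory light chains also depended on whether levels were divided by length. Per kb, the regulatory light chains summed to 4902 and the heavy chains to 3125. By base mean the heavy chains were higher, with 23306 against 5824. The essential light chains MYL6 and MYL6B, which are not members, summed to 5323 per kb and to a base mean of 3784. With all annotated exons as length they summed to 864 per kb, below the heavy chains with 1354 and the regulatory light chains with 2416. The summed scaffolds and kinases were below either myosin sum on both scales, with 16.7 per kb for the Shroom genes and 58.4 per kb for the kinases.

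The other genes of the RhoA, ROCK and myosin pathway were taken from a list of 42, and all 42 had a base mean. It was at least 5 for 39 of them, against 64.3% of the 20745 genes. The 3 genes under 5 were RND1 with 0.898 and RND2 with 1.58, both small GTPases of the Rnd group, and MYH14. RND3, also of the Rnd group, was far higher, with a base mean of 1429 and 532 per kb. RHOA, the GTPase that activates ROCK, had a base mean of 2411 and 1336 per kb. RHOC had 617 and 552 per kb, and RHOB 189 and 79.7 per kb. RHOA thus stood first of these 3 GTPase genes on both scales.

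MYLK, the myosin light chain kinase, had a base mean of 3274 and 324 per kb, above ROCK1 and ROCK2 on both scales. The other genes listed as light chain kinases, DAPK3 (52.4), CDC42BPA (210) and CDC42BPB (232), were below ROCK1 and ROCK2 by base mean. Per kb, CDC42BPB (33.9) was above ROCK1 and ROCK2, while DAPK3 (22.9) and CDC42BPA (19.1) were below them. PPP1R12A, the targeting subunit of the myosin phosphatase, had 1588 and 283 per kb. PPP1CB, its catalytic subunit, had 776 and 158 per kb. The other genes listed with the myosin phosphatase, PPP1R12B (26.3), PPP1R12C (69.7) and PPP1R14B (84.3), were lower by base mean. The highest genes of the list were ACTB with a base mean of 35811 and TPM1 with 24709, and these were the listed genes above MYH9 by base mean.

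**Figure D4:**
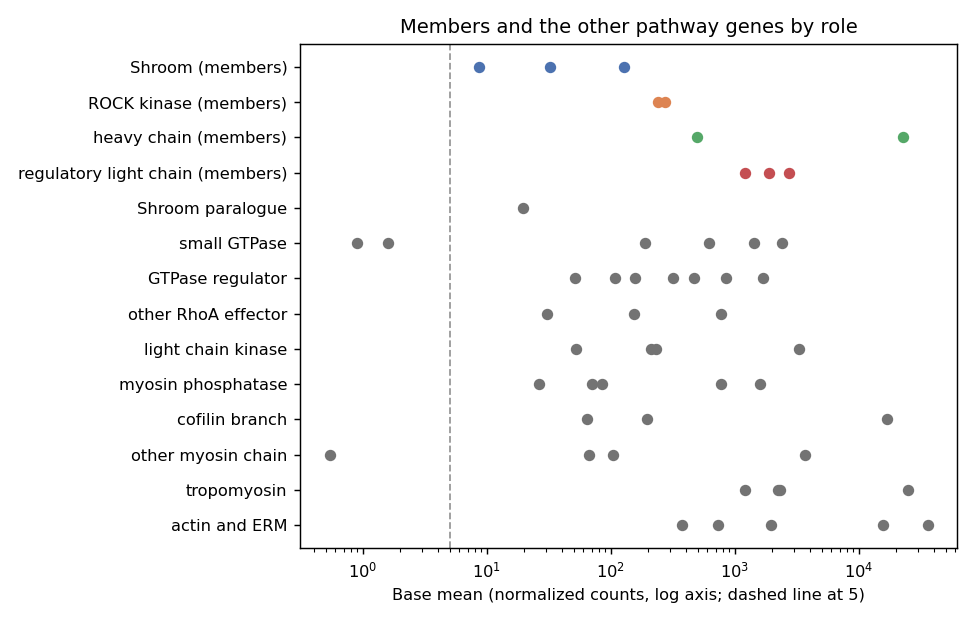
Base mean (normalized counts, log axis) of each member and of each of the 42 other pathway genes, in rows by role, with a dashed line at a base mean of 5. Each point is 1 gene and pools all cultures. The Shroom genes lie between 8.65 and 128 and the kinases at 241 and 275, while 39 of the 42 other genes lie to the right of the dashed line.

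The labelled cell type was set against marker lists. Of 12 podocyte markers 10 had a base mean, and 9 of these were at least 5, against 64.3% of the 20745 genes. The highest were ACTN4 with 14320 and CD2AP with 929, both of which many other cells also express. SYNPO had 22.8, PODXL 15.3 and WT1 6.21, and PTPRO was under 1 with 0.333. NPHS1, which encodes nephrin, and LMX1B were looked up and had no base mean. Why they had none was not tested, so they give no check of the label. The transcription factor WT1, PODXL, PTPRO, COL4A3 with 10.1 and TCF21 with 7.20 were below the median gene, which had 21.77. PLA2R1 with 21.78 and SYNPO were just above it, and KIRREL1 with 253, CD2AP and ACTN4 were further above.

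Of 6 smooth muscle and mesangial markers 4 had a base mean, from 4.14 for PDGFRB to 1021 for ACTA2, with a sum of 1302. MYL9 belongs to the same contractile set in smooth muscle, and whether these genes and MYL9 come from the same cells was not tested. Of 5 endothelial, 5 tubular and 4 leukocyte markers, 2 of each had a base mean. These summed to 0.740 for the endothelial, 2.12 for the tubular and 3.23 for the leukocyte markers.

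Near copies could make some of these levels uncertain, since HTSeq at default settings leaves reads with several equal hits uncounted. Of the 441 windows of 60 bases in the last 500 bases of the MYL12A transcript, 33 (7.48%) also occurred in MYL12B. In the other 9 members, 0 of the 441 windows occurred in a transcript of another gene. Within the last 1000 bases, MYL12A shared 7.34% and MYL12B 7.23% of their windows with each other or with processed pseudogenes of the pair. For MYL12A these windows covered its whole reference transcript, which has 958 bases. Within the last 300 bases neither shared a window with another gene. How many reads were lost in this way was not tested. Over the last 500 exonic bases of the members, the single overlap with exons of another gene was MYL12-AS1, an antisense RNA that covers 93 bases of MYL12A on the opposite strand.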

How the data were processed

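Poly(A)-primed libraries were made with an adapted CEL-seq protocol from 3 vehicle and 3 levamisole cultures of AB 8/13 cells, with 3 passages in each group. According to the methods and the submitters' processing notes, the authors trimmed reads with Trim Galore 0.4.5 and cutadapt 1.18, mapped them to GRCh38 with STAR 2.7.5a, counted them with HTSeq 0.11.0 at default settings and compared the groups with DESeq2 1.22.0 in R 3.5.3. The methods also describe a BWA alignment in which reads with several equal hits were dropped. The deposited base mean is on a signal scale: counts that the authors scaled by library size factors, with 1 average over libraries in place of a value per library.

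The other value columns of the table hold the authors' own fold changes, standard errors, test statistics and p-values for levamisole against vehicle. They were not used, so the planned test of levamisole was not made. The genes and lists were chosen with earlier results of these data known.

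Members were matched by gene name. Of the 20745 identifiers, 20599 matched GENCODE 44 on GRCh38, a later annotation than that of the authors. Levels were divided by the length of the MANE Select transcript, or of the longest transcript where none is tagged. Windows of 60 bases (the length of read 2) were searched on the transcript strand in all GENCODE transcripts, with a search tested on simulated data. Proteins were translated from the reference transcripts and aligned globally (BLOSUM62, gap penalties 10 and 0.5). Genes named outside the members are the other paralogues, RHOA, RHOB, RHOC, MYLK and the phosphatase subunits PPP1R12A and PPP1CB. Listed genes under a base mean of 5, and the 2 highest and those under 1 of the podocyte list, are named too. Results for some listed markers are not reported here. Other genes given were chosen after their values were seen. Python 3.11.15, pandas 2.3.3, Biopython 1.88 and matplotlib 3.10.9 were used.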

Additional observations from a re-analysis of the deposited data

How the results depend on the processing

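No paired analysis was possible because the values are pooled over cultures. For the same reason no count test, other normalization, fit with a replicate block or leave-one-out fit was run. With the union of all exons as length, the share in the family was 67.5% for SHROOM3, 56.7% for ROCK2, 98.9% for MYH9 and 37.2% for MYL12A, which then fell behind MYL12B. Without division by length, the shares were 75.9% for SHROOM3, 53.3% for ROCK2 and 46.8% for MYL12A, and that of MYH9 stayed at 97.9%. The members' part of the summed base means was 0.720% without the mitochondrial genome. Of the 42 other pathway genes, 40 had a base mean of at least 1 and 36 one of at least 50. Of all 20745 genes, 82.0% and 39.9% did. The number of members that share a window with another gene was 1 in the last 500 bases, 0 in the last 300 and 2 in the last 1000, and it stayed 1 when protein-coding genes alone were searched. Ranked among the 13336 genes at a base mean of 5 or more, SHROOM4 was at percentile 7.85 and SHROOM2 at 29.3.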
